A study of Rattus norvegicus with 20 samples.

Results

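Transcripts of 3 cytokine receptor subunits, Il6st, Il13ra1 and Tnfrsf1a, and of 2 components of the signalling that such receptors start, Stat3 and Socs1, were followed in the injured and the opposite hemisphere of rat brains. These 5 genes were chosen by name out of 770 genes on a probe panel, not by a threshold on these data, and all 5 were read in all 20 libraries. The brains came from 10 female rats after a controlled cortical impact, in which a piston contuses the exposed cortex, and each rat gave 1 ipsilateral (injured side) and 1 contralateral library of snap-frozen tissue. Per the series title and protocols, rats received L-myc immortalised human neural stem cells (NSC) through the nose or vehicle (VEH). The labels do not say which rat received which, so every group here mixes both. Strain, age, time after injury and the exact piece of tissue are not given in the sources used here, and no uninjured rat was analysed here.

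Most receptors of the interleukin-6 family signal through a shared subunit encoded by Il6st. Ligand binding activates Janus kinases (JAK), which phosphorylate the transcription factor STAT3. In injured brain STAT3 is known for its part in astrocyte reactivity and scar formation. SOCS1 is an inducible inhibitor that binds Janus kinases and limits signalling, above all that of interferon gamma. IL13RA1 binds interleukin-13 and forms a receptor with the interleukin-4 receptor alpha chain that signals through STAT6 and, in some cells, STAT3. TNFRSF1A is the tumour necrosis factor receptor with a death domain, which leads to NF-kB and to kinase cascades rather than to STAT factors.

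Windows around the annotated starts of the rat genes are shown for the receptor subunit, the transcription factor and the inhibitor of this chain. Their transcripts are compared below, and STAT factors bind a short palindrome. All 5 genes were matched by symbol. The windows are RefSeq sequences of build GRCr8, from 250 bases before to 50 bases after the annotated start, 5′ to 3′ on the gene's strand. Capitals mark matches, on either strand, to the STAT motif TTCNNNGAA or to the interferon-stimulated motif GAAANNGAA.
Il6st (chr2:45809982-45810281, plus strand): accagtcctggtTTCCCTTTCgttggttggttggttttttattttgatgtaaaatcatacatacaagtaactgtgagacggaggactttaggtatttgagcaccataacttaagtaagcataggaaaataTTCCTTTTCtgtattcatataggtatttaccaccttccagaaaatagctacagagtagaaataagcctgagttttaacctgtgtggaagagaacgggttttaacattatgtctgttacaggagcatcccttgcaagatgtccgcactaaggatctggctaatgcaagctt
Stat3 (chr10:86363310-86363609, minus strand): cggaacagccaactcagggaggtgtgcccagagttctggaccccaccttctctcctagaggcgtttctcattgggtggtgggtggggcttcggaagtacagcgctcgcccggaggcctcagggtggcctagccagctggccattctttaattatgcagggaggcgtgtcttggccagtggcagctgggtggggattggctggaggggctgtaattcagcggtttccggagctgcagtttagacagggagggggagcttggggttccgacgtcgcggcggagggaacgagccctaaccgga
Socs1 (chr10:5389324-5389623, plus strand): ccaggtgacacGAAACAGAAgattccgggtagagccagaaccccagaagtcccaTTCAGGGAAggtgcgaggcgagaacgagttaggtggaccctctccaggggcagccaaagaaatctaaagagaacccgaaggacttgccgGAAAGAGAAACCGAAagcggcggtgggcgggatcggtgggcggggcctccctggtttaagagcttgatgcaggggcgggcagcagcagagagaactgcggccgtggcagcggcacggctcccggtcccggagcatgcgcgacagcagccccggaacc

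The Socs1 window held 1 STAT motif, at bases -196 to -188 from the start, and 3 interferon-stimulated motifs, at -239 to -231, -107 to -99 and -101 to -93, of which the last overlap each other. The Il6st window held 2 interferon-stimulated motifs, at -238 to -230 and -120 to -112, and the Stat3 window neither. In the Il6st window an ATG lies shortly after the annotated start. The bases just before that start read ttacag, as the end of an intron may. Whether transcription begins there was not tested, so the 2 Il6st matches may not lie in a promoter. The windows of Il13ra1 and Tnfrsf1a, not printed, held neither motif as well. Of 33469 rat promoter windows of this length, 8.87% held the STAT motif and 9.71% the interferon-stimulated motif. A match describes the letters of the window and is no evidence of binding.

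Counts came from the NanoString nCounter, which counts barcoded probes bound to RNA one by one without amplification. The total over the 770 genes ranged from 34454 to 319964 counts per library, and the most uneven depths were contralateral. The negative controls (8 probes without a target) averaged 5.28 counts with a maximum of 18, and the median endogenous gene averaged 5.85. The 193 endogenous genes with a mean of at least 20 counts were tested, all 5 genes described here among them. Each library was divided by a factor from 17 housekeeping genes (0.289 to 4.27), and the result is called a scaled count. The RefSeq accessions that the matrix gives for its probes are those of mouse transcripts: 0 of the 770, and 0 of these 5, are among the rat RefSeq transcripts. How well each probe binds the rat transcript was not tested, so a low count need not mean a low transcript, and only the same probe is compared between libraries. Per the column headers, the sides were run as separate sets of libraries, and the positive controls gave 1.46-fold more counts in the ipsilateral set. Set and hemisphere therefore cannot be told apart.

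Il13ra1, Stat3 and Il6st rose on the injured side and Socs1 and Tnfrsf1a did not pass the test (edgeR quasi-likelihood, animal as a block, adjusted p under 0.05 over the 193 genes). Il13ra1 rose most, 2.54-fold, against 1.48-fold for Stat3 and 1.44-fold for Il6st. Of all tested genes, 57.5% were called between hemispheres, 47.2% higher and 10.4% lower, so 3 of 5 called higher is near the share of the tested genes. By size of the log2 fold change, Il13ra1 ranked 16 of 193 from the top, Stat3 64, Il6st 72, Tnfrsf1a 79 and Socs1 100, and the tested genes had a median of 0.30 on the log2 scale. In bulk tissue, more cells of a type and more RNA per cell cannot be told apart.

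**Figure D1:**
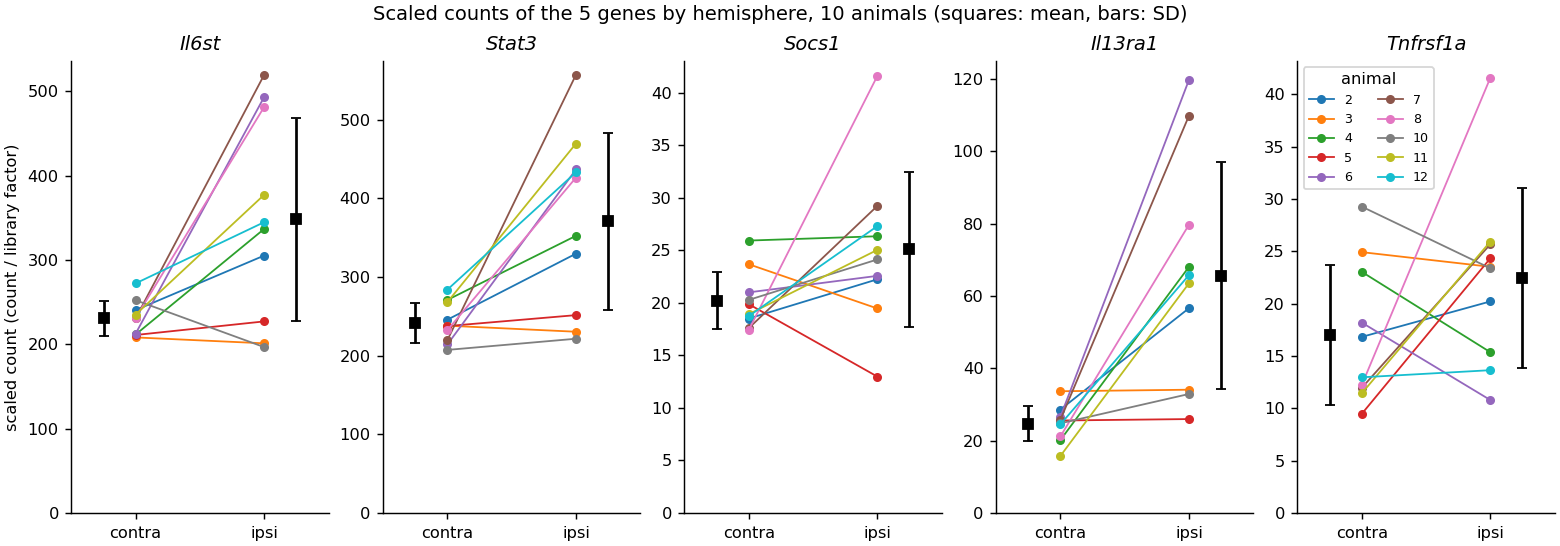
Scaled counts (count divided by library factor, linear axis from 0) of Il6st, Stat3, Socs1, Il13ra1 and Tnfrsf1a in the contralateral and ipsilateral library of each of 10 rats, joined by a line per rat. Squares and bars are mean and SD. Contralateral values of Il6st lie between 208 and 272 while ipsilateral values spread from 197 to 520.

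Il6st encodes the subunit that carries the signal of most of the interleukin-6 family. Its ipsilateral scaled counts ran from 197 in animal 10 over a median of 341 to 520 in animal 7. Contralaterally they ran from 208 in animal 3 over a median of 231 to 272 in animal 12. The contralateral libraries were close to each other, with a coefficient of variation of 9.02% against 34.5% ipsilaterally. Of the ipsilateral libraries, 7 lay above every contralateral one, 2 lay below every contralateral one, and the groups overlapped. The means were 348 ± 120 ipsilateral and 231 ± 20.8 contralateral scaled counts (SD, n = 10 each), and 8 of 10 rats were higher ipsilaterally (log2 fold change 0.52, SE 0.15, edgeR adjusted p = 0.0123). Animal 10, with a log2 difference of -0.36, and animal 3, with -0.05, went the other way. The unscaled counts were higher ipsilaterally in 6 of 10 rats, so the direction in some animals rests on the library factors.

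Stat3, the transcription factor below Il6st, had ipsilateral scaled counts from 221 in animal 10 over a median of 389 to 557 in animal 7. Contralaterally it ran from 207 in animal 10 over a median of 238 to 284 in animal 12. As for Il6st, 7 ipsilateral libraries lay above every contralateral one, and the coefficient of variation was 30.3% ipsilaterally against 10.6% contralaterally. The means were 371 ± 112 and 242 ± 25.5 scaled counts (SD, n = 10 each), and 9 of 10 rats were higher ipsilaterally (log2 fold change 0.57, SE 0.13, edgeR adjusted p = 0.00454). Animal 3 was the exception, at a log2 difference of -0.05, and animals 5 and 10 were close to it at 0.08 and 0.10. The largest difference, 1.34, was that of animal 7.

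Socs1, the inhibitor, was counted close to background. Its unscaled counts were 8 to 33 ipsilaterally and 9 to 75 contralaterally, on average 3.96 and 5.82 times the negative control mean of the same side. The lowest count, 8 in the ipsilateral library of animal 5, has a 95% exact Poisson interval of 3.45 to 15.8, which covers counting error only. Ipsilateral scaled counts ran from 12.98 in animal 5 over a median of 24.6 to 41.6 in animal 8, and contralateral ones from 17.4 in animal 8 over a median of 19.4 to 25.9 in animal 4. The groups overlapped, with 4 ipsilateral libraries above and 1 below every contralateral one. The means were 25.1 ± 7.37 and 20.2 ± 2.73 scaled counts (SD, n = 10 each), with 8 of 10 rats higher (log2 fold change 0.29, SE 0.18, edgeR adjusted p = 0.16). A 95% interval of -0.11 to 0.69 around this log2 fold change holds both no difference and the values of Stat3 and Il6st. The SD of the log2 differences between rats was 0.50, and counting error alone would give 0.47.

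Il13ra1, the interleukin-13 binding subunit, separated the hemispheres most. Ipsilateral scaled counts ran from 25.9 in animal 5 over a median of 64.6 to 120 in animal 6. Contralateral ones ran from 15.8 in animal 11 over a median of 25.2 to 33.6 in animal 3. Of the 10 ipsilateral libraries 8 exceeded every contralateral one, and all 10 rats were higher ipsilaterally. The means were 65.6 ± 31.3 and 24.6 ± 4.87 scaled counts (SD, n = 10 each). The difference passed the test by the widest margin of the 5 (log2 fold change 1.34, SE 0.25, edgeR adjusted p = 0.00116). Rats rose unevenly. Animals 3 and 5 had log2 differences of 0.02 each and animal 10 of 0.40, whereas the other 7 rats lay between 0.96 in animal 2 and 2.13 in animal 6. Contralateral counts averaged 7.22 times the negative control mean, and after background subtraction the log2 fold change was 1.504.

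Tnfrsf1a, the death domain receptor of tumour necrosis factor, had a mean of 20.45 counts, just over the minimum of 20, and fell under it when animal 7 or animal 11 was left out. Ipsilateral scaled counts ran from 10.8 in animal 6 over a median of 23.4 to 41.6 in animal 8, and contralateral ones from 9.46 in animal 5 over a median of 14.9 to 29.3 in animal 10. The ranges overlapped almost wholly, with 1 ipsilateral library above every contralateral one. The means were 22.4 ± 8.58 and 17.03 ± 6.70 scaled counts (SD, n = 10 each), with 6 of 10 rats higher (log2 fold change 0.44 ± 0.26 SE, 95% interval -0.15 to 1.03, edgeR adjusted p = 0.157). Rats differed in direction, from -0.70 in animal 6 to 1.69 in animal 8. The highest ipsilateral values of both Socs1 and Tnfrsf1a were those of animal 8, whose ipsilateral library was the shallowest of its side by housekeeping counts and gave 12 unscaled counts for either gene.

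**Figure D2:**
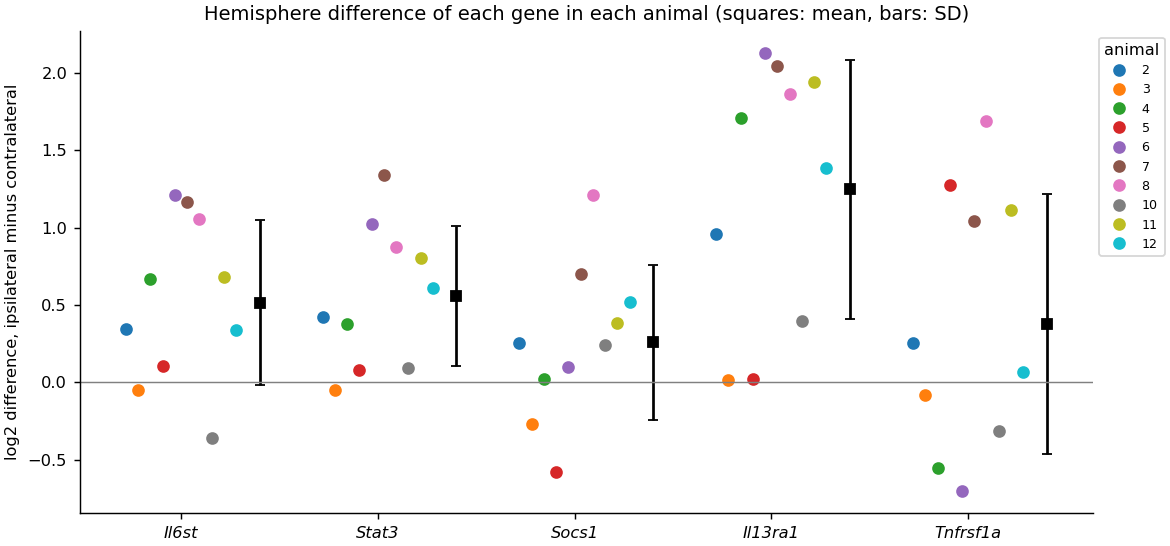
Difference of log2(scaled count + 1) between the ipsilateral and contralateral library of each rat (vertical axis) for the 5 genes, coloured by animal, with squares and bars for mean and SD. Il13ra1 lies at or above 0.02 in every rat, while Tnfrsf1a runs from -0.70 to 1.69.

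How far a transcript rose depended on how the libraries were scaled, while Il13ra1 had the highest value of the 5 genes under each scaling. The log2 fold change of Il13ra1 was 1.07 with TMM factors, 1.03 with DESeq2's size factors and 0.89 with libraries centred on their medians, and it was called under each of these (edgeR). Stat3 had 0.29 with TMM factors, where it was still called, 0.25 with DESeq2's factors (adjusted p = 0.0528) and 0.11 with median centring (adjusted p = 0.383). Il6st had 0.24, 0.21 and 0.07 in the same order and was called under none of these 3 scalings. With the positive controls as the only scaling, which does not take up differences in RNA input, 9 of 193 genes were called and none of these 5. Relative to the median of all tested genes under the same scaling, Il13ra1 lay 0.97 to 1.05 higher over the 7 scalings. Stat3 lay 0.26 to 0.27 higher, Il6st 0.22 higher under each and Tnfrsf1a 0.10 to 0.15 higher, while Socs1 lay at -0.05 to -0.01. The log2 fold change of Socs1 itself turned from 0.29 to -0.03 with DESeq2's factors and -0.16 with median centring, neither called.

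**Figure D3:**
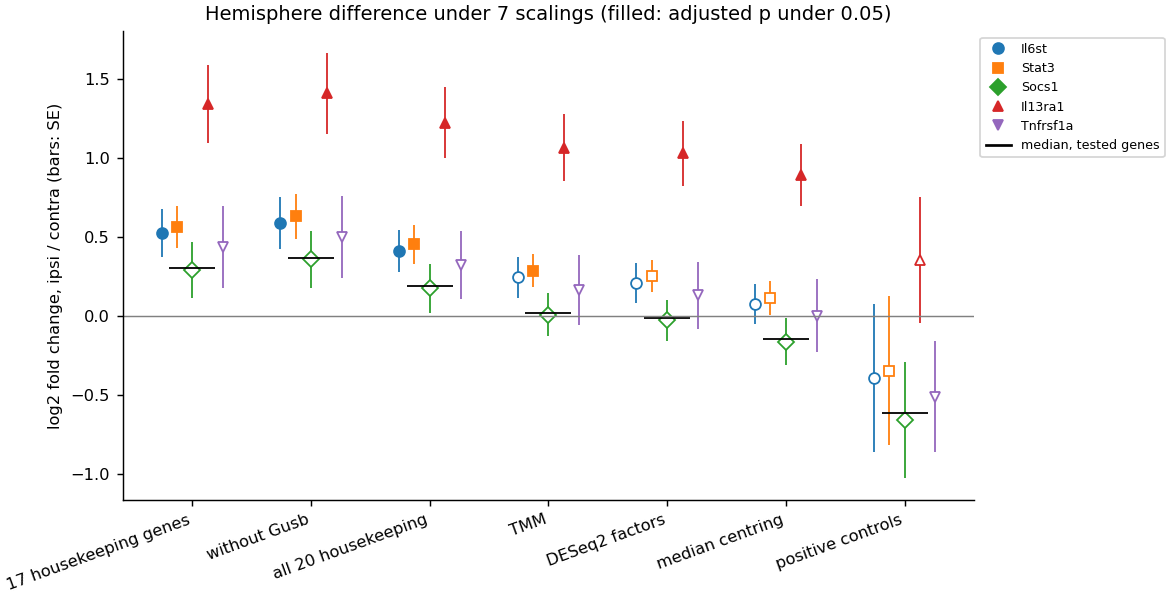
Log2 fold change between hemispheres (vertical axis, bars: SE) of the 5 genes under 7 ways of scaling the libraries. Filled symbols have an edgeR adjusted p under 0.05, and black dashes mark the median of the 193 tested genes, from 0.37 without Gusb to -0.61 with positive controls. Il13ra1 is highest under each scaling and Socs1 lies at the median.

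Ratios of 2 probes within a library do not depend on its factor, and each gene was also set against each of the 17 housekeeping genes in this way. The factor is the geometric mean of these same 17 genes, so the ratios restate the scaled difference, split by housekeeping gene. They cannot tell which scaling is right. The ratio of Il13ra1 was higher ipsilaterally against all 17, by 0.23 (log2) against Gusb and up to 1.69 against Oaz1. Those of Il6st, Stat3 and Tnfrsf1a were higher against 16 and that of Socs1 against 15 of 17. At an unadjusted exact permutation p under 0.05 the ratio was higher against 16 housekeeping genes for Il13ra1, 15 for Stat3, 13 for Il6st, 6 for Socs1 and 0 for Tnfrsf1a. Gusb, a lysosomal enzyme, was itself 1.02 higher ipsilaterally on the log2 scale after scaling, and it was the housekeeping gene against which each of the 5 genes was lowest, at -0.50 for Il6st and -0.46 for Stat3.

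The 5 genes were compared with each other by the same kind of ratio, in 10 pairs (exact sign-flip permutation test over the 10 rats, two-sided, Benjamini-Hochberg adjusted over the 10 pairs). The ratio of Il6st to Il13ra1 was lower ipsilaterally in 9 of 10 rats, with a mean log2 difference of -0.74 (95% interval -1.04 to -0.43, exact permutation adjusted p = 0.0195). The ratio of Stat3 to Il13ra1 differed by -0.69 (lower in 9 of 10 rats, exact permutation adjusted p = 0.0195). That of Socs1 to Il13ra1 differed by -0.98, lower in 10 of 10 rats (exact permutation adjusted p = 0.0195). The ratio of Il13ra1 to Tnfrsf1a was 0.86 higher in 9 of 10 rats and did not pass (95% interval 0.04 to 1.67, exact permutation adjusted p = 0.0859). Receptor subunit and transcription factor did not part measurably: the ratio of Il6st to Stat3 differed by -0.04 between hemispheres (95% interval -0.20 to 0.12, exact permutation adjusted p = 0.693). Stat3 relative to the inhibitor Socs1 was 0.29 higher in 8 of 10 rats, at an exact permutation p of 0.043 that became 0.0859 after adjustment. The remaining 4 pairs had exact permutation adjusted p between 0.251 and 0.693, with intervals as wide as -0.54 to 0.78 for Il6st over Tnfrsf1a.

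Il6st and Stat3 differed most between hemispheres in largely the same rats. Over 10 rats the log2 differences of Il6st and Stat3 had Pearson's r = 0.907 and Spearman's rho = 0.903 (permutation adjusted p = 0.00167 and 0.00243 over 10 pairs of genes). Without animals 6 and 10, the farthest from the median of Il6st, r was 0.913. Il13ra1 had r = 0.898 with Il6st and 0.903 with Stat3 over 10 rats (permutation adjusted p = 0.00167 for both). Its differences fell apart into 3 and 7 rats, and the relations were therefore also taken within the 7, a subset chosen after the differences were seen. There Il13ra1 had r = 0.87 and rho = 0.929 with Il6st (exact permutation adjusted p = 0.0417 and 0.0675) and r = 0.749 and rho = 0.821 with Stat3 (0.128 and 0.114). In the same 7 rats the relation of Il6st and Stat3 did not pass either (r = 0.821, exact permutation adjusted p = 0.0906). Tnfrsf1a had r = 0.232 with Il6st and 0.277 with Stat3 over 10 rats (permutation adjusted p = 0.567 and 0.538). Stat3 and Socs1 passed by rank only, with rho = 0.745 and r = 0.68 over 10 rats (permutation adjusted p = 0.0421 and 0.0674), and r was 0.583 without animals 3 and 7. Socs1 and Tnfrsf1a had r = 0.384 over 10 rats (permutation adjusted p = 0.395) and r = 0.864 with rho = 0.786 within the 7 (exact permutation adjusted p = 0.0417 and 0.12), where animal 8, with 12 unscaled ipsilateral counts for either gene, was highest in both. All differences of a rat share its 2 library factors, which alone moves genes together. The median Spearman's rho of Stat3 with the other 192 tested genes was 0.394, and 45.3% of them had a rho above 0.5. By rho with Stat3, Il13ra1 ranked 12 and Socs1 55.5 of the 192, so the relation with Socs1 is not particular to this pair. By rho with Il6st, Il13ra1 ranked 1.5 and Stat3 9.5.

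**Figure D4:**
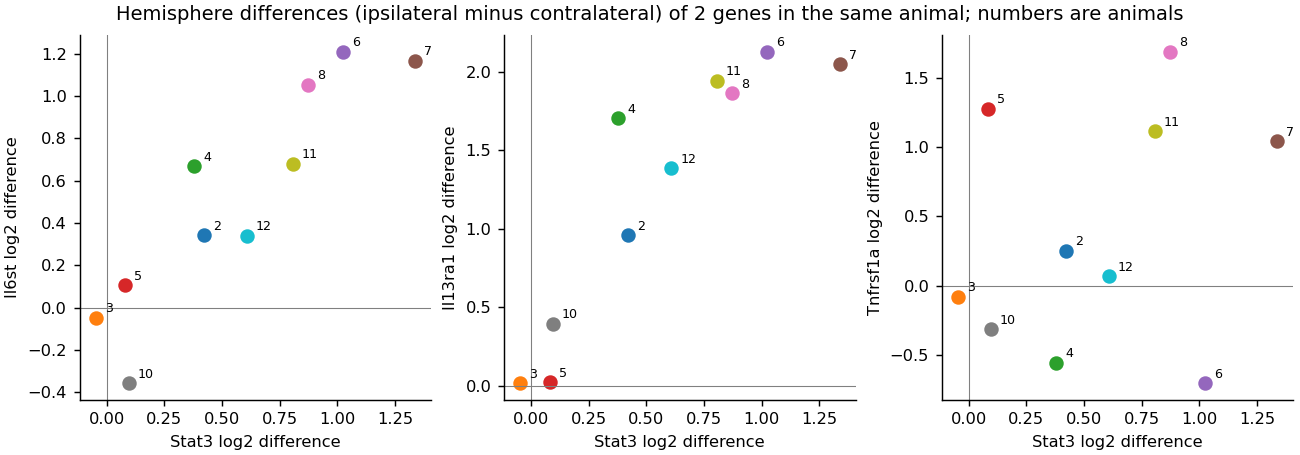
Log2 difference between hemispheres of Il6st, Il13ra1 and Tnfrsf1a (vertical axes) against that of Stat3 (horizontal axes), 1 point per rat with its animal number. Animals 3, 5 and 10 lie lowest for Stat3 and Il13ra1, and Tnfrsf1a has no common order with Stat3 (r = 0.277).

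Leaving the 5 genes themselves aside, the tested genes most like each of them in their differences over the 10 rats were listed by Spearman's rho, as a description. For Il6st they were Anxa1 (annexin A1, rho 0.939), Ctsh (the lysosomal protease cathepsin H, 0.927) and Itgb1 (integrin beta 1, 0.927). For Stat3 they were Vim (vimentin, an intermediate filament of reactive glia, 0.988), Ctsh (0.976) and Cd63 (a tetraspanin of late endosomes, 0.964). For Il13ra1 they were Ctsh (0.976), the macrophage mannose receptor Mrc1 (0.964) and the endothelial cadherin Cdh5 (0.952). Each of these 7 genes was called higher ipsilaterally, and within the 7 rats without animals 3, 5 and 10 these rho were 0.893 to 0.964. Socs1 was nearest to Tie1 (an endothelial receptor, 0.915), C4b (complement, 0.903) and Notch1 (0.891). Tnfrsf1a was nearest to Ewsr1 (an RNA-binding protein, 0.915), Pou2f2 (a lymphoid transcription factor, 0.855) and H2-K1 (a class I antigen chain in mouse, 0.806).

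The other genes of these pathways were mostly at background. Of the interleukin-6 family list, 7 of 16 genes were on the panel and only Il6st was tested: the ligands Il6 (mean 4.70 counts), Lif (5.45), Osm (5.45), Il11 (2.95) and Il27 (3) and the receptor Il11ra1 (6.75) lay near the negative controls. Among the Janus kinases, which act between the receptor subunits and Stat3, Jak2 (0.10 ± 0.08 SE on the log2 scale) and Tyk2 (0.20 ± 0.22 SE) were tested and did not pass. Jak1 averaged 3.15 counts and Stat6, the factor of interleukin-4 and interleukin-13 signalling, 1.75, both under the negative control mean. Of the inhibitor list 2 of 16 genes were on the panel, and Socs3, the inhibitor most tied to STAT3, averaged 7.10 counts and was not tested.

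Of the genes known as STAT3 targets, 17 of 28 were on the panel, 10 were tested and 3 rose, against 47.2% called higher among all tested genes, with a median log2 fold change of 0.15, below 0.30 for all tested genes. The 3 were the protease inhibitor A2m (2.44 ± 0.49 SE), Vim (2.26 ± 0.37 SE) and Myc, a growth regulator (0.58 ± 0.21 SE). The survival genes Bcl2 (0.13 ± 0.20 SE) and Bcl2l1 (0.17 ± 0.08 SE) and the transcription factors Bcl6 (0.18 ± 0.09 SE) and Cebpb (0.01 ± 0.12 SE) did not pass. Fos, Hif1a and Vegfa, the other 3 tested, did not pass either. Under median centring 2 of the 10 were called higher and 5 lower.

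For interleukin-4 and interleukin-13 signalling, 3 of 15 panel genes were tested. Il13ra1 and Mrc1 (1.33 ± 0.33 SE) rose and Tyk2 did not pass, against 47.2% called higher among all tested genes. Arg1 was not tested, at a mean of 14.9 counts. Its scaled means were 13.65 ipsilaterally and 12.27 contralaterally, with 6 rats higher and 4 lower. The partner chain Il4ra averaged 5.60 counts, the decoy receptor Il13ra2 3.6, the ligand Il13 5.75 and Il4 2.35, so none of them was tested. Along the interferon gamma axis that SOCS1 restrains, Irf1 (0.73 ± 0.17 SE), a transcription factor induced by interferon, rose, and it was not called higher under median centring. The interferon gamma receptor chain Ifngr1 averaged 6.25 counts.

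In the tumour necrosis factor receptor list, 13 of 21 panel genes were tested, 3 rose and 2 fell, with a median of 0.24. Among all tested genes 47.2% were called higher and 10.4% lower. The NF-kB subunit Nfkb2 (0.82 ± 0.26 SE) and the kinases Ikbkb (0.38 ± 0.13 SE) and Chuk (0.24 ± 0.09 SE), which release NF-kB, were higher. The kinases Map2k4 (-0.84 ± 0.15 SE) and Map3k5 (-0.32 ± 0.10 SE), which lead to stress kinases, were lower. Without the animal block 8 were called, 6 higher and 2 lower. The 3 increases were lost under TMM factors and under median centring, where 0 of the 13 were higher and 3 lower. Leaving out single rats moved the number called from 5 to between 2 (without animal 7) and 9 (without animal 3), with 3 without animal 11. The ligand Tnf averaged 6.15 counts and the second receptor Tnfrsf1b 4.05, near the negative controls. A list of further cytokine receptor subunits, which does not take in every such receptor, had 25 genes on the panel, and none reached the minimum of 20. The highest mean among them was that of Tgfbr1 at 16.9 counts. Of the receptor subunits in these lists, only the 3 described here were abundant enough on this panel to test.

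**Figure D5:**
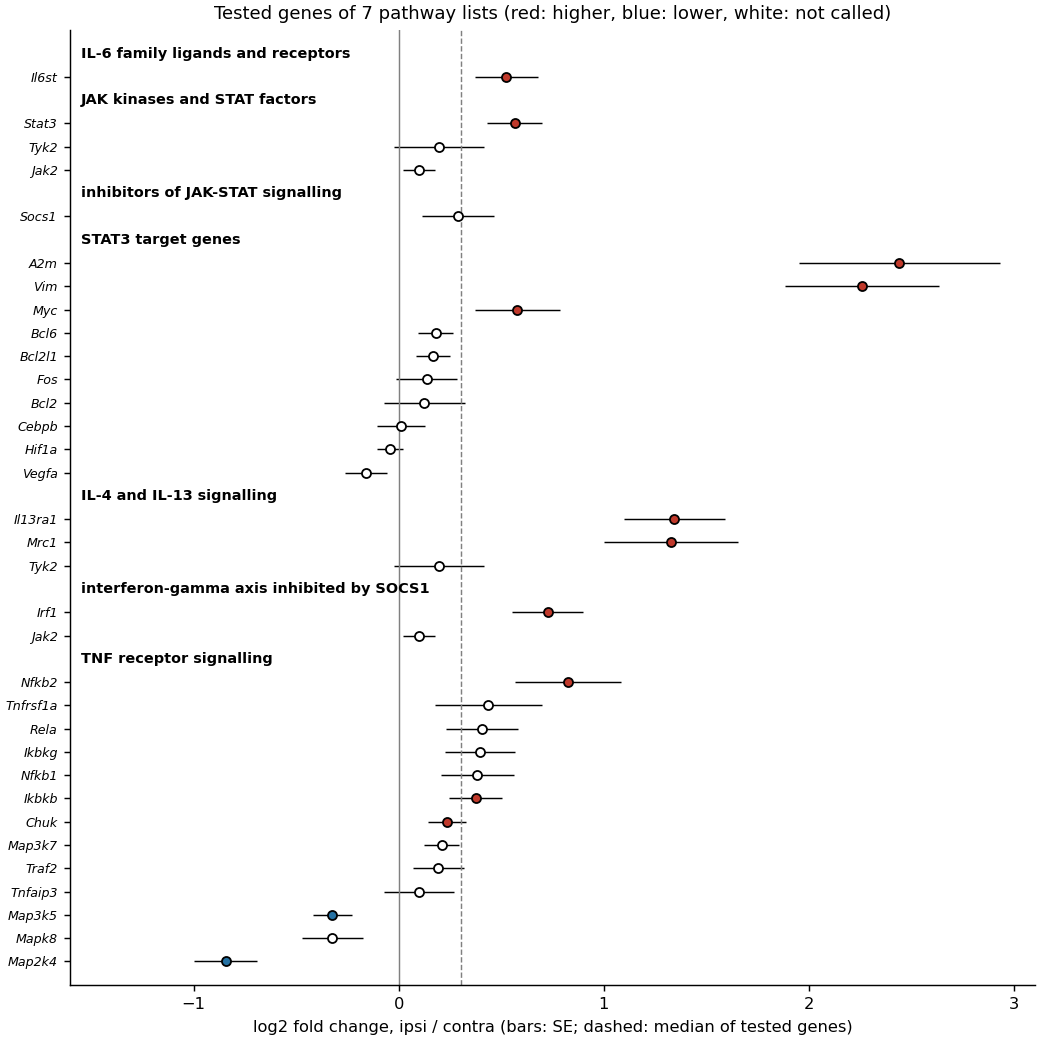
Log2 fold change between hemispheres (horizontal axis, bars: SE) of tested genes in 7 pathway lists, with red for higher, blue for lower and white for not called (edgeR adjusted p under 0.05). The dashed line is the median of the 193 tested genes, 0.30, and genes in more than 1 list appear in each.

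Cell type markers moved with the hemisphere as well, and their counts are to be read against 47.2% called higher and 10.4% called lower among all tested genes. The calls are those with housekeeping factors. Calls of the marker lists under the other scalings, which shifted the whole panel, are not given here. All 5 tested of 9 panel markers of microglia and macrophages rose (Cd68, Ptprc, Fcer1g, Lyz2 and Mrc1), and their summed scaled count was 278 to 1822 ipsilaterally and 230 to 324 contralaterally. The defining markers Itgam, Cx3cr1 and Csf1r averaged 2.10, 3.45 and 5.20 counts, at the level of the negative controls. Trem2, also under the minimum, averaged 13.5 counts and did not move with the hemisphere. Its scaled means were 12.98 ipsilaterally and 12.15 contralaterally, with 5 rats higher and 5 lower. All 3 tested of 4 fibroblast and pericyte genes rose (summed 196 to 2654 against 110 to 276), as did all 4 tested of 7 endothelial genes (178 to 471 against 183 to 326). Under the minimum, Pdgfrb averaged 15.5 counts (8 rats higher, 2 lower) and the endothelial Pecam1 14.7 counts (6 rats higher, 4 lower). The endothelial Vwf and Kdr averaged 2.95 and 2.60 counts. Of 9 genes in the neuronal list 4 were on the panel: Nefl, Mpped1, Cyfip2 and Egr1, which is activity-regulated and so no plain marker of neuron number. All 4 fell, with summed scaled counts of 1821 to 4751 against 3634 to 5158, and the sum was higher ipsilaterally in 2 of 10 rats. Neuronal genes outside this short list were not counted. Of astrocyte markers only Vim was tested (higher) and S100b averaged 2.40 counts, and no oligodendrocyte marker was on the panel. None of 5 neutrophil and 4 B cell genes was tested, and of 9 T and NK cell genes only Cd3e was, at -0.38 ± 0.39 (SE, edgeR adjusted p = 0.409). The part of these cell types in the differences of Il6st, Stat3 and Il13ra1 was not tested.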

How the data were processed

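RNA of 20 brain samples was hybridised and counted on an nCounter Digital Analyzer and handled in nSolver, per the labels' protocols. The authors deposited a matrix of whole-number counts, 1 row per probe (784 rows: 750 endogenous genes, 20 housekeeping rows recognised by their place before the controls, 8 negative and 6 positive controls). The design text speaks of 10 housekeeping controls and of normalised values, but positive controls differ 2.09-fold between libraries and the negative controls are not subtracted, so values were treated as raw counts. A second table repeats these counts, but names a different rat of that side for 20 of 20 columns. Pairs are the same in both, and animal numbers follow the matrix headers.

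The library factor is the geometric mean of 17 housekeeping genes, those averaging at least 20 counts. Hemispheres were compared with edgeR 4.0.16 (glmQLFit, glmQLFTest) in R 4.3.3, animal as a block, over 193 genes with Benjamini-Hochberg adjustment, two-sided, and the SE is the log2 fold change over the root of F. Per-rat differences use log2(scaled count + 1), and ratios log2(count + 1). The 95% interval of a fold change uses 9 degrees of freedom. The pairing comes from the titles, where 1 sample of each hemisphere carries the same animal number. Residuals of both libraries of a rat correlated from -0.21 to 0.499, above 0.1 in 5 of 10 rats. The best match was the rat's own other library only in animals 10 and 11, so the pairing rests on the labels. Pairs of libraries within a side differed by at least 2.22 in chi-square per degree of freedom, so none was taken as a repeat. Where nothing else is said, n is 10 rats per side.

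The 5 genes, the gene and marker lists and the tests were chosen with earlier results of these data known, and the motifs after the promoters were seen. Named are the 5 genes, measured genes of the lists, and for each of the 5 the 3 other tested genes with the highest Spearman's rho of the differences. Alternatives were 6 other scalings, background subtraction, minimum counts of 50 or none, no block, DESeq2 1.42.0, limma 3.58.1, exact permutation and leaving out each rat. The tests were tried on simulated counts with known changes. For edgeR these changes were drawn in both directions and the library factors were known, so a shift of the whole panel was not tried. A gene of the lists is not reported here.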

Additional observations from a re-analysis of the deposited data

How the results depend on the processing

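Counts of Socs1 and Tnfrsf1a lay near background, and the part of depth in their missing calls was not tested. After scaling, the negative controls averaged 6.67 ipsilaterally and 4.68 contralaterally. After background subtraction the log2 fold change was lower for Socs1 (0.23) and Tnfrsf1a (0.38) and higher for Il6st (0.56), Stat3 (0.60) and Il13ra1 (1.504). The calls of all 5 genes stayed as reported. For Tnfrsf1a the SD of the log2 differences between rats was 0.84, and counting error alone would give 0.50. Without the replicate block, with limma and with DESeq2's test, the calls of all 5 genes were as reported. The p of the exact sign-flip permutation was not adjusted, so it is not held to the same threshold. At an unadjusted exact permutation p under 0.05, Il6st (0.0195), Stat3 (0.00391) and Il13ra1 (0.00195) passed. Socs1 (0.133) and Tnfrsf1a (0.18) did not. Without the replicate block the log2 fold changes were 0.59 for Il6st, 0.62 for Stat3 and 1.42 for Il13ra1, and leaving out the block moved no list count by over 1.5 times except that of the tumour necrosis factor list (8 genes called). Calls lost were those of Il6st with TMM (0.24), DESeq2's size factors (0.21) and median centring (0.073), of Stat3 with DESeq2's size factors (0.25) and median centring (0.11), and of Il13ra1 with positive control scaling (0.36). The sign turned with positive control scaling for Il6st (-0.39), Stat3 (-0.35), Socs1 (-0.66) and Tnfrsf1a (-0.51), and for Socs1 also with DESeq2's size factors (-0.027) and median centring (-0.16). These differences follow the shift of the whole panel, whose median was 0.30, 0.02, -0.01, -0.15 and -0.61 with housekeeping genes, TMM, DESeq2's size factors, median centring and positive controls. Of the called genes, those higher made up 82.0%, 55.2%, 52.8%, 36.0% and 33.3% in the same order. A minimum of 50 left Socs1, Il13ra1 and Tnfrsf1a untested.

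Leaving out each rat gave 0.45 to 0.62 for Il6st, 0.48 to 0.63 for Stat3 and 1.23 to 1.504 for Il13ra1, each called in 10 of 10 (edgeR adjusted p up to 0.0328, 0.0127 and 0.00441). Socs1 gave 0.19 to 0.37 and Tnfrsf1a 0.30 to 0.55, called in none of 10 and of 8 (edgeR adjusted p at least 0.0885 and 0.0903). The count of called genes, 111, ran from 81 to 126 when a rat was left out and was 9 with positive control scaling. The member pairs called, 3 of 10, were 3 to 4 when a rat was left out and 3 with a pseudocount of 10 or background subtraction.

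List counts moved as follows. The interleukin-6 family count of 1 was 0 with TMM, DESeq2's size factors, median centring and positive controls. The JAK and STAT count of 2 was 1 (lower) with median centring and 0 with positive controls, as was the interferon gamma count of 2. The interleukin-4 and interleukin-13 count of 2 was 0 with positive controls. The STAT3 target count of 3, all higher, was 5 with DESeq2's size factors (2 higher, 3 lower) and 7 with median centring (2 higher, 5 lower). It was 4 with TMM (2 higher, 2 lower) and 3 with all 20 housekeeping rows (2 higher, 1 lower). Without Gusb 5 were called, all higher. With positive controls 0 were called, and 2 to 4 when a rat was left out. The tumour necrosis factor count of 5 (3 higher, 2 lower) was 3, all lower, with TMM, DESeq2's size factors and median centring. It was 3 (1 higher, 2 lower) with all 20 housekeeping rows and 9 (7 higher, 2 lower) without Gusb. It was 1 with positive controls, 2 with no minimum and 2 to 9 when a rat was left out. With no minimum, 1 of 25 further cytokine receptor subunits was called. The cause of the other changes was not tested.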

Other observations

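Il1rl1, the receptor of interleukin-33, was the further cytokine receptor subunit called when no minimum count was set, and is named after its value was seen. Its log2 fold change was 1.42 ± 0.44 (SE, edgeR adjusted p = 0.0339 over 750 genes) at a mean of 4.35 counts, below the negative control mean of 5.28, so its size cannot be read from these counts.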
